A study of Mus musculus with 18 samples.

Results

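Hao1, Hao2, Fmo1, Fmo2, Fmo4 and Fmo5, 6 genes of flavin-dependent oxidases, were followed in mouse liver over all 6 groups of the study. All 12 probe sets that carry exactly 1 of these symbols were taken, and the probe set with the highest mean over all arrays stands for its gene, as 1 of 13228 genes tested out of 18193 with a probe set. The genes were chosen from these same arrays with results in view: the HFD effects on Hao2 in the reversal model and on Fmo2 in the prevention model were known, so those values are given as a description, with no test.

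The hydroxyacid oxidases are peroxisomal enzymes with flavin mononucleotide as cofactor, and they oxidise 2-hydroxy acids to 2-oxo acids with release of hydrogen peroxide. Hao1, glycolate oxidase, is a liver enzyme that makes glyoxylate, the precursor of oxalate, while Hao2 acts on longer-chain 2-hydroxy acids. The flavin-containing monooxygenases carry flavin adenine dinucleotide, sit in the endoplasmic reticulum and use NADPH and oxygen to oxidise nitrogen and sulfur atoms of drugs and other small molecules.

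Livers of wild-type CD1 mice, an outbred stock, were profiled on Affymetrix arrays, with 3 arrays a group. CMPF is a furan fatty acid metabolite found in blood, and the high-fat diet (HFD) held 60% of its energy as fat. In the prevention model 1 group received CMPF at 6 mg/kg a day for 1 week and then HFD for 4 weeks by the sample labels (4 to 5 by the design text). The HFD group received vehicle and then HFD. The third was the chow control, which also had 1 week of injections, without CMPF. In the reversal model 1 group had 6 weeks of HFD and then 2 weeks of CMPF at the same dose. The HFD group had the same diet with vehicle. The third was again a chow control, with 2 weeks of injections without CMPF. Ages are not given in the sources used here, nor whether each array was a separate animal, so a p-value measures the spread between arrays, which may be technical.

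Hepatocyte markers were the brightest marker list on every array, with a mean of 12.8 to 13.5 on the log2 scale over 7 markers. In the prevention CMPF group replicates 2 and 3 hardly differed, with 0 genes over 2-fold apart against at least 115 in any other pair of arrays, and were averaged to 1 sample, so that group has n = 2. The array means were 5.09 in the prevention model and 5.25 in the reversal model, so levels are compared within a model only. Pancreas markers averaged 8.43 on prevention chow 3 and at most 6.76 on any other array. Reversal chow 2 stood apart from its group, with 1120 and 850 genes over 2-fold from chow 1 and chow 3. Between reversal chow 1 and chow 3 there were 132. Of the reversal chow arrays it was the lowest in Hao1 (11.39), Fmo1 (9.96) and Fmo5 (10.81) and the highest in Fmo4 (5.57). An index of RNA length, the log2 signal at the 3′ end less that at the 5′ end of control transcripts, goes up as RNA gets shorter. Its mean in the prevention model was 2.95 ± 0.285 for CMPF (SD over 2 samples), 2.84 ± 0.303 for HFD and 1.43 ± 0.512 for chow (SD over 3 arrays each). Values below are log2 signals or differences between them, and a difference of 1 is a doubling.

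**Figure D1:**
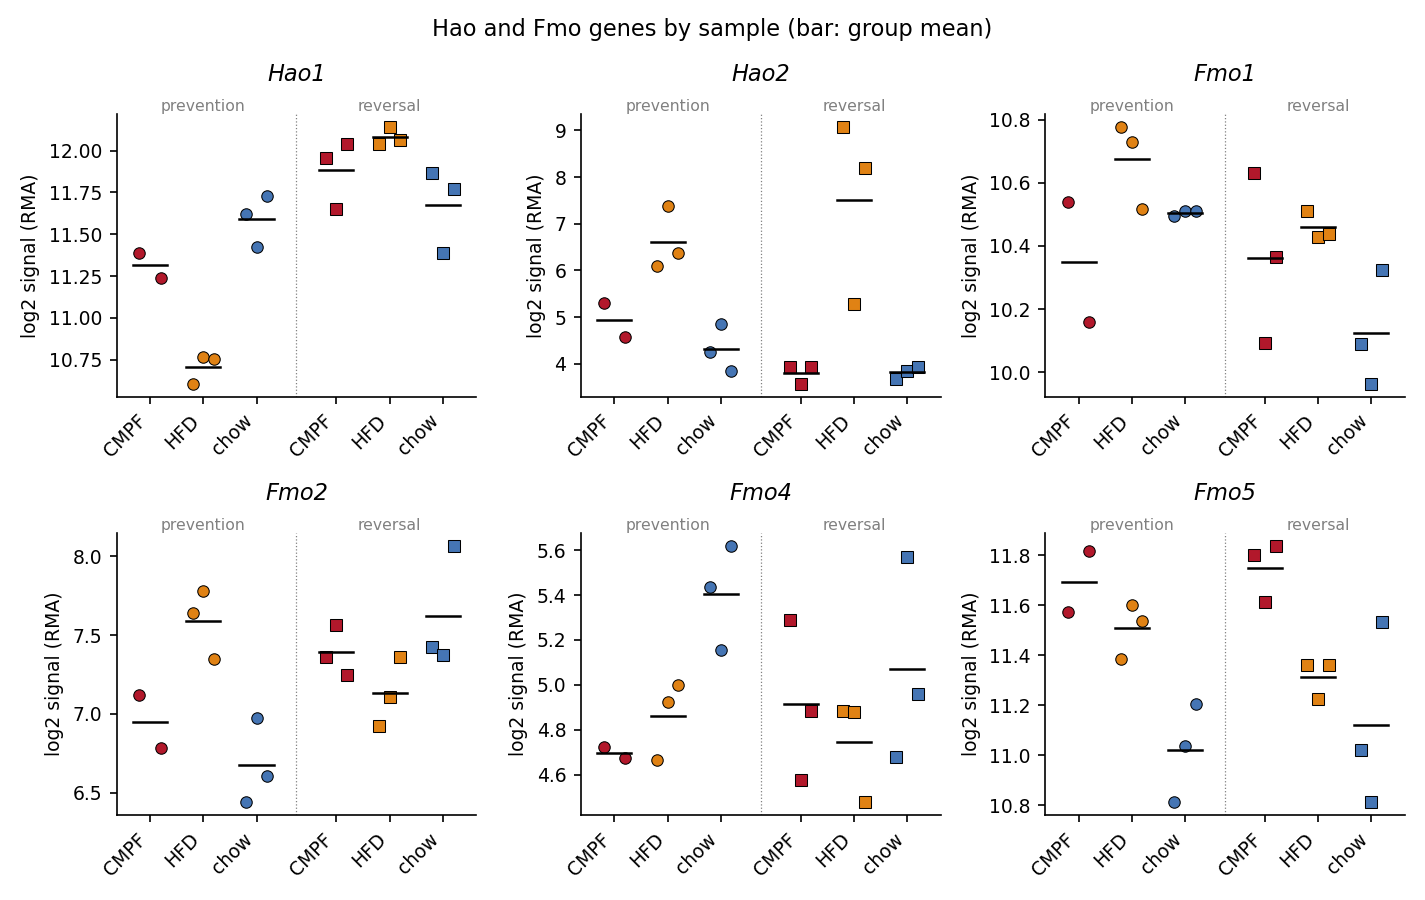
Log2 signal of the main probe set of each gene (y axis, own scale per panel) in each of the 17 samples of the fit, by group, with prevention as circles and reversal as squares; bars are group means. Hao2 was above 5 on all HFD arrays of both models and below 4 on all CMPF and chow arrays of the reversal model.

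Hao2 and Hao1 had HFD effects of opposite sign in the prevention model, and their promoters are shown for that reason. The windows are those of RefSeq on GRCm38.p6, from 250 bases before to 50 after the start of the gene, written 5′ to 3′ on the gene's own strand. Hao2 lies at chr3:98893181-98893480 and Hao1 at chr2:134554303-134554602, both on the minus strand. Capitals mark matches, on either strand, to any of 5 motifs. These were the HNF1 half-site, spelled GTTAAT, and the HNF6 core, spelled ATCAAT, both named for liver factors. The others were the nuclear receptor half-site AGGTCA, the STAT5 element TTCNNNGAA and the TATA box TATAAA. The table held promoters for 5 of the 6 genes.
Hao2: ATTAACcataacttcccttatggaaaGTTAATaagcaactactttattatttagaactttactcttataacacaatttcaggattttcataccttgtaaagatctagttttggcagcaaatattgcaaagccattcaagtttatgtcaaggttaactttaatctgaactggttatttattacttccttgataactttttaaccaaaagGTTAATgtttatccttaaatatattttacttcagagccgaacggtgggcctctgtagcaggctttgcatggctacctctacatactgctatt
Hao1: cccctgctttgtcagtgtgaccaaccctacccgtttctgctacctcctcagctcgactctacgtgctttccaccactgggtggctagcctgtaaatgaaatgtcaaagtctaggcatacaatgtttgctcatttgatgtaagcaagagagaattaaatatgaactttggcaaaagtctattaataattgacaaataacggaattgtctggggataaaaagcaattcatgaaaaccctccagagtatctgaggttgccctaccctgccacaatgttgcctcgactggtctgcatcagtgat
The Hao2 window held 3 matches, all of them to GTTAAT, starting at positions -250, -224 and -42, the first in reverse complement and none overlapping. At least 1 GTTAAT stood in 7.10% of all 32851 promoter windows. The Hao1 window held 0 matches. ATCAAT stood in 7.54% of windows, AGGTCA in 16.3%, TTCNNNGAA in 8.30% and TATAAA in 13.6%, and neither window held these. A match is a string of letters only, and its absence says nothing about a factor.

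Hao2 was highest in the vehicle-injected HFD group of each model. Reversal arrays read 3.94, 3.57 and 3.93 in CMPF livers, 9.07, 5.28 and 8.19 in HFD livers, and 3.67, 3.85 and 3.93 in chow livers. Every HFD array was above every CMPF array and every chow array, while CMPF and chow arrays overlapped. Replicate 2 of the HFD group was the lowest of its group, and the HFD arrays spread far more (SD 1.98, n = 3) than the CMPF (SD 0.209, n = 3) and chow arrays (SD 0.133, n = 3).

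The difference of HFD from chow in the reversal model was 3.69 ± 0.682 (log2 fold change ± SE), or 13.0-fold. This is the value on which Hao2 was picked, and it was 2.92, 4.81 and 3.36 when HFD replicate 1, 2 or 3 was left out. CMPF livers differed from HFD livers by -3.70 ± 0.682, with a 95% interval from -5.16 to -2.24, and this ranked 12th of 13228 genes by size of the moderated t statistic. Its adjusted p was 0.0983 in limma, with Benjamini-Hochberg adjustment over all genes tested, and it missed the threshold of 0.05. Without reversal HFD replicate 2 it passed, at -4.82 with an adjusted p of 0.000167. It also passed with the 3′ to 5′ index in the fit (adjusted p = 0.0468). In the other 25 alternatives it did not pass, with an adjusted p of up to 0.740. Leaving out 1 sample at a time, the value ran from -4.82 to -2.92. Both comparisons share the 3 HFD arrays, so the CMPF value is not independent of the choice of Hao2. CMPF livers and chow livers differed by -0.01 ± 0.682 (adjusted p = 0.998), with an interval from -1.47 to 1.46. This SE and interval use the spread shared over all 6 groups, the widely spread HFD arrays included. The CMPF and chow arrays themselves had an SD of 0.209 and 0.133.

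In the prevention model Hao2 was at 5.31 and 4.57 in CMPF livers, 6.09, 7.38 and 6.38 in HFD livers, and 4.25, 4.85 and 3.85 in chow livers. The HFD arrays were again above all others, and CMPF and chow overlapped. HFD livers were at 2.30 ± 0.682 over chow (adjusted p = 0.0618) and CMPF livers at -1.68 ± 0.763 against HFD (adjusted p = 0.621), so neither passed. The HFD value passed in 6 alternatives and not in the other 21, where its adjusted p reached 0.221. The lowest adjusted p was 0.0125, without reversal HFD replicate 2. Adjusted p was 0.0340 without reversal HFD replicate 1 and 0.0474 without prevention chow replicate 2. With the prevention samples only the effect was 2.30 ± 0.379 (adjusted p = 0.0231), and with the 2 groups only 2.30 ± 0.375 (0.0470). The main fit shares 1 spread over all 6 groups, so leaving out reversal arrays left the 2.30 as it was and changed its SE. The HFD effects on Hao2 in the models differed by 1.40 ± 0.965. This holds the reversal effect on which Hao2 was picked and is given with no test, and it was 2.51 without reversal HFD replicate 2.

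Hao2 was dim outside the HFD groups. Its mean lay at the 35.1th percentile of probe sets in reversal CMPF livers and the 33.6th in reversal chow livers, against the 82.4th in reversal HFD livers. Markers of kidney, where Hao2 is also expressed, averaged 3.86 to 3.95 in reversal CMPF livers, 3.84 to 3.90 in reversal HFD livers and 3.92 to 4.00 in reversal chow livers, so they were near the bottom of the scale in all 3 groups. Macrophage and Kupffer cell markers, 8 in all, averaged 7.09 to 7.79 in reversal CMPF, 7.27 to 7.99 in reversal HFD and 6.66 to 7.25 in reversal chow livers. All 8 were above chow in reversal HFD livers (median 0.76), though 0 of 8 passed in limma and 1 had an unadjusted p under 0.05, and their part in the Hao2 result was not tested. Over all 13228 genes 2963 had an unadjusted p under 0.05 in that comparison. In bulk tissue fewer cells of a type and less RNA per cell cannot be told apart.

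The 3 tested genes most like Hao2 over the 17 samples, each centred on the mean of its model, were Slc22a29, an organic anion transporter family member (Pearson r = 0.94), Cyp2b13, a cytochrome P450 of the female-biased class in mouse liver (0.89), and Nt5e, the ecto-enzyme CD73 that makes adenosine (0.85). These r values are descriptions, and the samples share groups, so any gene that moved with diet scores high. Hao2 was picked on its reversal HFD value, so the reversal HFD values of these 3 genes are given here as descriptions. Their CMPF values come from the samples that chose them and are not independent of that choice. Cyp2b13 was at 4.62, 4.68 and 4.66 in reversal CMPF livers, 9.36, 7.25 and 7.97 in reversal HFD livers, and 4.76, 4.94 and 4.68 in reversal chow livers. Like Hao2, its HFD arrays stood apart and replicate 2 was the lowest of them. Its CMPF effect there was -3.54 ± 0.648 (adjusted p = 0.0983), which did not pass. Slc22a29 was at 2.00 for HFD against chow and at -2.03 for CMPF against HFD (adjusted p = 0.305) in the reversal model.

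Nt5e was the only one of these 3 to pass the CMPF comparison. It was at 6.66, 6.24 and 6.92 in reversal CMPF livers, 8.04, 7.87 and 8.47 in reversal HFD livers, and 5.87, 6.06 and 6.20 in reversal chow livers. It fell by 1.52 with CMPF (adjusted p = 0.0199), which is not independent of its choice for likeness to Hao2. With HFD it was at 2.08, and all 3 groups stood apart from one another. Replicate 2 was lowest among the HFD arrays for Nt5e too, by a smaller margin.

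**Figure D2:**
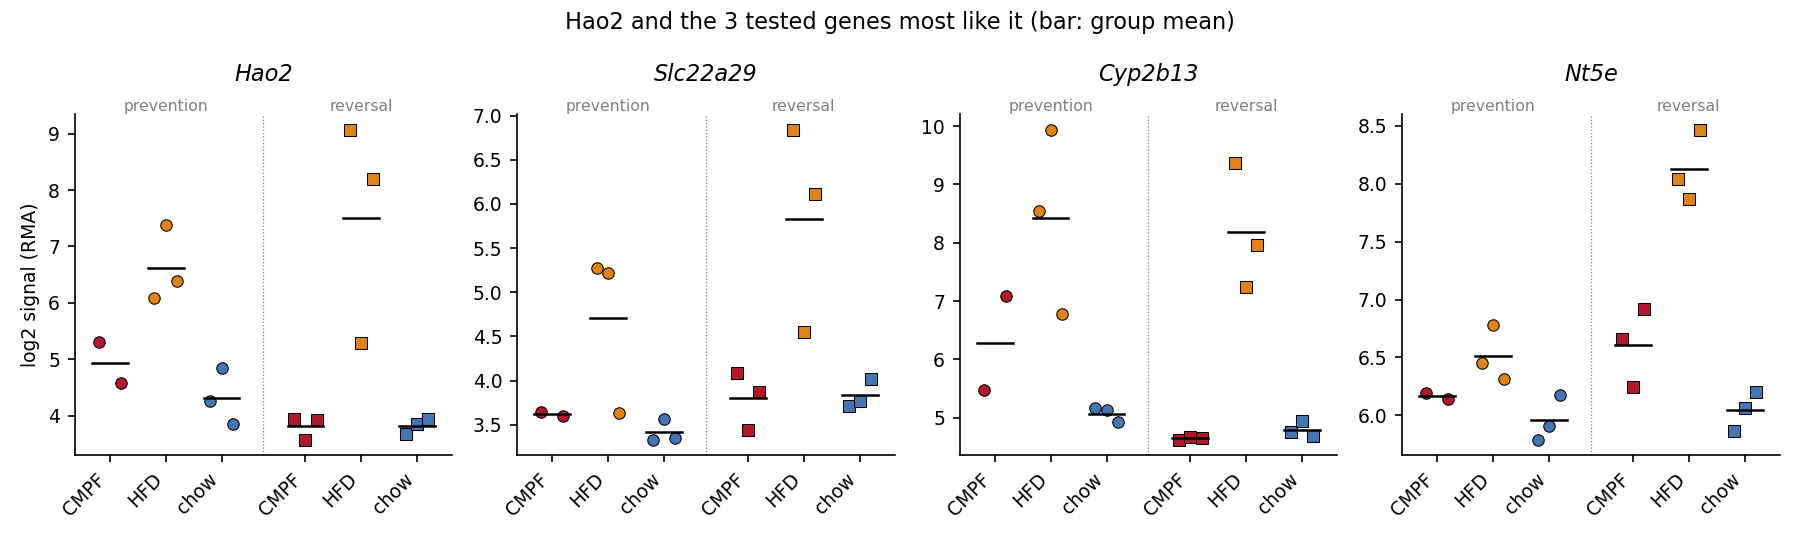
Log2 signal (y axis, own scale per panel) of Hao2 and the 3 tested genes with the highest correlation with it, in the 17 samples by group; bars are group means. In the reversal model the HFD squares stood above the CMPF and chow squares in all 4 panels.

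Hao1 fell with HFD in the prevention model, and its HFD effect differed between the models. It was at 11.39 and 11.24 in prevention CMPF livers, 10.61, 10.77 and 10.76 in HFD livers, and 11.62, 11.43 and 11.73 in chow livers. No 2 groups overlapped, with HFD lowest, CMPF between and chow highest. HFD against chow was -0.88 ± 0.137 (adjusted p = 0.0113), a fall of 1.84-fold, 17th of all genes by size of the moderated t. CMPF livers were 0.61 ± 0.153 above HFD livers, with an interval from 0.28 to 0.93, and this did not pass (adjusted p = 0.327).

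Reversal livers had Hao1 at 11.96, 11.65 and 12.04 in CMPF livers, 12.04, 12.14 and 12.07 in HFD livers, and 11.87, 11.39 and 11.77 in chow livers. The HFD arrays were above the chow arrays, and the CMPF arrays overlapped both. HFD against chow was 0.41 ± 0.137 (adjusted p = 0.115), CMPF against HFD -0.20 ± 0.137 (adjusted p = 1.00) and CMPF against chow 0.21 ± 0.137 (adjusted p = 0.438). Over the other settings the value of HFD against chow ran from 0.20 to 0.41. The HFD effect differed between the models by 1.29 ± 0.193 (reversal minus prevention, adjusted p = 0.0163), the 7th largest of all genes by moderated t. Without prevention chow replicate 1 the difference was 1.27 (adjusted p = 0.0506). The CMPF effects differed by -0.80 ± 0.205, which did not pass (adjusted p = 0.471).

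The fall of Hao1 moved with RNA quality. HFD livers of the prevention model had an index 1.42 above that of chow livers; the exact permutation test (two-sided) gave 0.1, its smallest possible p at this size. In CMPF livers the index was 0.11 above HFD livers (exact p = 0.6). With the index in the fit the Hao1 effect was -0.73 (adjusted p = 0.108) and the difference between models 1.09 (adjusted p = 0.152), and neither passed. Without prevention chow replicate 1, chow replicate 3 or HFD replicate 1 the fall was at -0.87, -0.81 and -0.83 with adjusted p of 0.0627, 0.0624 and 0.0532. Prevention chow replicate 3 is the array with the high pancreas markers.

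Phyh, which starts peroxisomal alpha-oxidation of phytanic acid, was the gene most like Hao1 over the 17 samples (r = 0.95), followed by Eprs, a tRNA synthetase, and Dnaja3, a mitochondrial chaperone (0.92 each). Phyh was lower by 0.71 with HFD in the prevention model, Eprs by 0.77 and Dnaja3 by 0.59. Their likeness to Hao1 was taken over these same samples, so these values are descriptions with no test. None of the 3 passed in the HFD comparison of the reversal model, with values of 0.26, 0.26 and 0.18. Fmo2 ran the other way, with r = -0.77 against Hao1.

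Fmo2, best known as the lung form of the family, had HFD effects of opposite sign in the models. It was at 7.12 and 6.78 in prevention CMPF livers, 7.64, 7.78 and 7.35 in HFD livers, and 6.44, 6.98 and 6.61 in chow livers. All HFD arrays were above all others, and CMPF and chow overlapped. HFD against chow was 0.91 ± 0.201, or 1.88-fold, which is the value on which Fmo2 was picked. CMPF against HFD was -0.64 ± 0.225 (adjusted p = 0.497).

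Reversal livers had Fmo2 at 7.36, 7.57 and 7.24 in CMPF livers, 6.93, 7.11 and 7.36 in HFD livers, and 7.43, 7.37 and 8.07 in chow livers. Every HFD array was below every chow array, the reverse of the prevention model, and CMPF overlapped both. HFD against chow was -0.49 ± 0.201 (adjusted p = 0.177) and CMPF against HFD 0.26 ± 0.201 (adjusted p = 1.00). The HFD effects differed by -1.41 ± 0.285 (reversal minus prevention). Most of this is the prevention effect on which Fmo2 was picked, so it is a description with no test, and it was -1.03 with the index in the fit.

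Fmo2 had 5 probe sets, 1 of them too dim for the fit. The other 4 all had positive HFD effects in the prevention model, of 0.91, 0.30, 0.70 and 0.48, and negative ones in the reversal model, of -0.49, -0.32, -0.17 and -0.30. The differences between models were -1.41, -0.62, -0.87 and -0.78, and these are descriptions too, since the probe sets measure the gene that was picked. The main one has a name ending in s_at, which marks probes that may pick up related transcripts.

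Lung markers, 5 on the array, averaged 4.63 to 4.85 in prevention CMPF livers, 4.71 to 5.01 in prevention HFD livers and 4.52 to 4.85 in prevention chow livers, with the club cell marker Scgb1a1 the lowest in each. Sinusoidal endothelium markers averaged 6.64 to 6.95 in CMPF, 6.90 to 7.11 in HFD and 6.33 to 6.79 in chow livers of that model, and Stab2, an endothelial scavenger receptor, rose by 0.52 ± 0.142 with HFD (adjusted p = 0.0490), as 1 of 5 tested. In the reversal model endothelium markers averaged 6.97 to 7.32 in CMPF, 6.72 to 7.30 in HFD and 6.89 to 7.25 in chow livers, and lung markers 4.71 to 5.07 in CMPF, 4.61 to 4.78 in HFD and 4.82 to 5.25 in chow livers. Their medians for HFD against chow there were -0.27 over 5 endothelium and -0.40 over 4 lung genes tested, with 0 passing in limma and 2 and 1 at an unadjusted p under 0.05. Over all 13228 genes 2963 had an unadjusted p under 0.05 there, and 4104 for the difference of the HFD effects. For the difference of the HFD effects 0 of 5 endothelium genes were positive (median -0.51), and Stab2 passed at -0.91 ± 0.201 (adjusted p = 0.0244), while 1 of 4 lung genes was positive (median -0.57) and 0 passed, with 2 at an unadjusted p under 0.05. These medians have the sign of the Fmo2 values, and the part of these cells in the Fmo2 values was not tested. The marker values, those of Stab2 included, are from the fit without the 3′ to 5′ index. The genes most like Fmo2 were Lpcat1 (r = 0.92), an acyltransferase of lung surfactant lipids, Tbc1d4 (0.91), a regulator of glucose transporter traffic, and Zap70 (0.895), a T-cell kinase. Tbc1d4 was at 0.34, Zap70 at 0.58 and Lpcat1 at 0.32 for HFD in the prevention model. They were chosen for likeness to Fmo2, which was picked on that comparison, so these values are descriptions with no test.

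**Figure D3:**
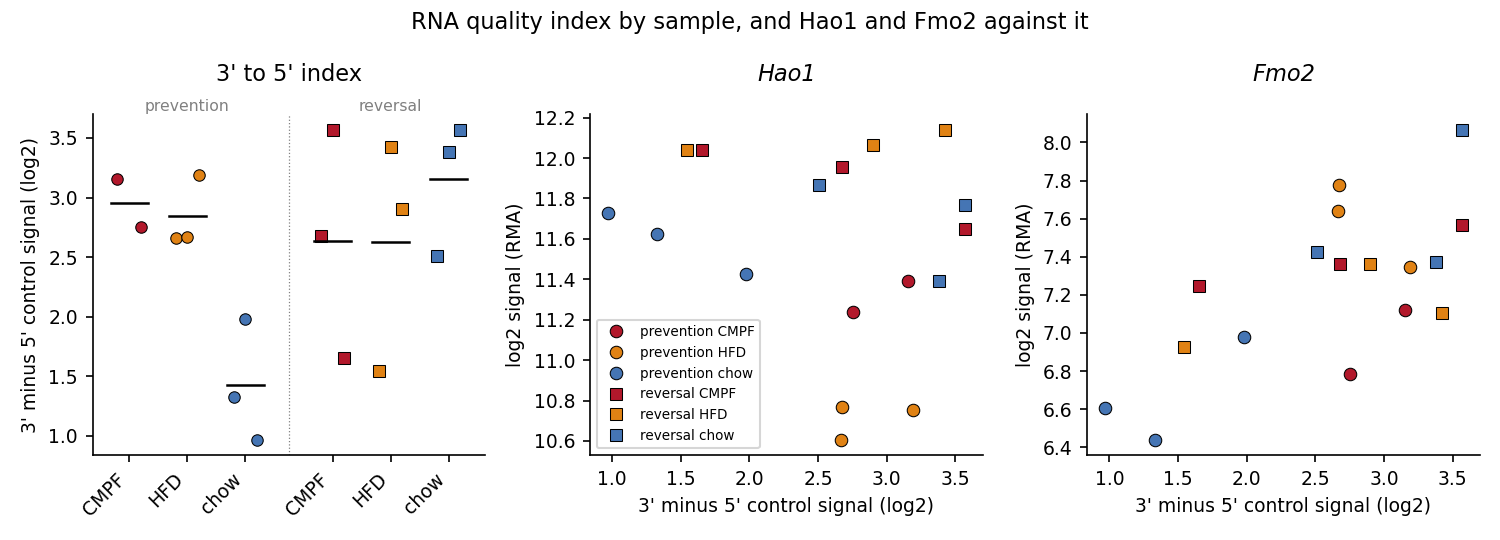
Left, the 3′ to 5′ index (log2 difference of 3′ and 5′ control signals) by group, with group means as bars; centre and right, log2 signal of Hao1 and Fmo2 against the index, 1 point per sample. The prevention chow circles have the lowest mean index, 1.43, and the prevention HFD circles are the lowest in Hao1.

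Fmo5, a monooxygenase that also acts on ketones by Baeyer-Villiger oxidation, was highest in the CMPF groups. Reversal arrays read 11.80, 11.61 and 11.84 in CMPF livers, 11.36, 11.22 and 11.36 in HFD livers, and 11.02, 10.81 and 11.53 in chow livers. The CMPF arrays were above all HFD and chow arrays, while HFD and chow overlapped. CMPF against chow was 0.63 ± 0.162 (adjusted p = 0.0631) and CMPF against HFD 0.44 ± 0.162 (adjusted p = 0.852), so neither passed. The value against chow passed without reversal chow replicate 3 (0.84, adjusted p = 0.0118), with all 18 arrays counted (adjusted p = 0.0462) and with the replicate number as a block (0.0468).

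In the prevention model Fmo5 was at 11.57 and 11.82 in CMPF livers, 11.39, 11.60 and 11.54 in HFD livers, and 10.81, 11.04 and 11.21 in chow livers. CMPF and HFD overlapped, and both were above chow on every array. CMPF against chow was 0.67 ± 0.181 (adjusted p = 0.35), HFD against chow 0.49 ± 0.162 (adjusted p = 0.0865) and CMPF against HFD 0.18 ± 0.181 (adjusted p = 0.857). The HFD value passed under quantile normalization (0.66, adjusted p = 0.0199), cyclic loess (0.65, 0.0218) and without reversal chow replicate 2 (0.0473) or replicate 3 (0.0436). The main Fmo5 probe set, 1450332_s_at, has a name ending in s_at, like that of Fmo2, so it too may pick up related transcripts. A further Fmo5 probe set, 1421709_a_at, had like values of 0.66 for CMPF against chow, 0.46 for HFD and 0.20 for CMPF against HFD.

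The third Fmo5 probe set, 1440899_at, did not follow the groups. On 5 arrays it was between 4.81 and 5.83, and on the other 13 between 8.60 and 10.23. The low arrays were prevention chow 1, reversal HFD 2 and 3, and reversal CMPF 2 and 3, and on the same arrays the other 2 Fmo5 probe sets did not separate (8.53 to 9.64 against 8.60 to 9.53, and 10.81 to 11.84 against 10.81 to 11.87). Its difference of CMPF from HFD in the reversal model was 0.69 (adjusted p = 1.00) and that of HFD from chow -2.24 (adjusted p = 0.341). Where the probe sets of Fmo5 are averaged, this one turns the signs of 2 Fmo5 effects.

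**Figure D4:**
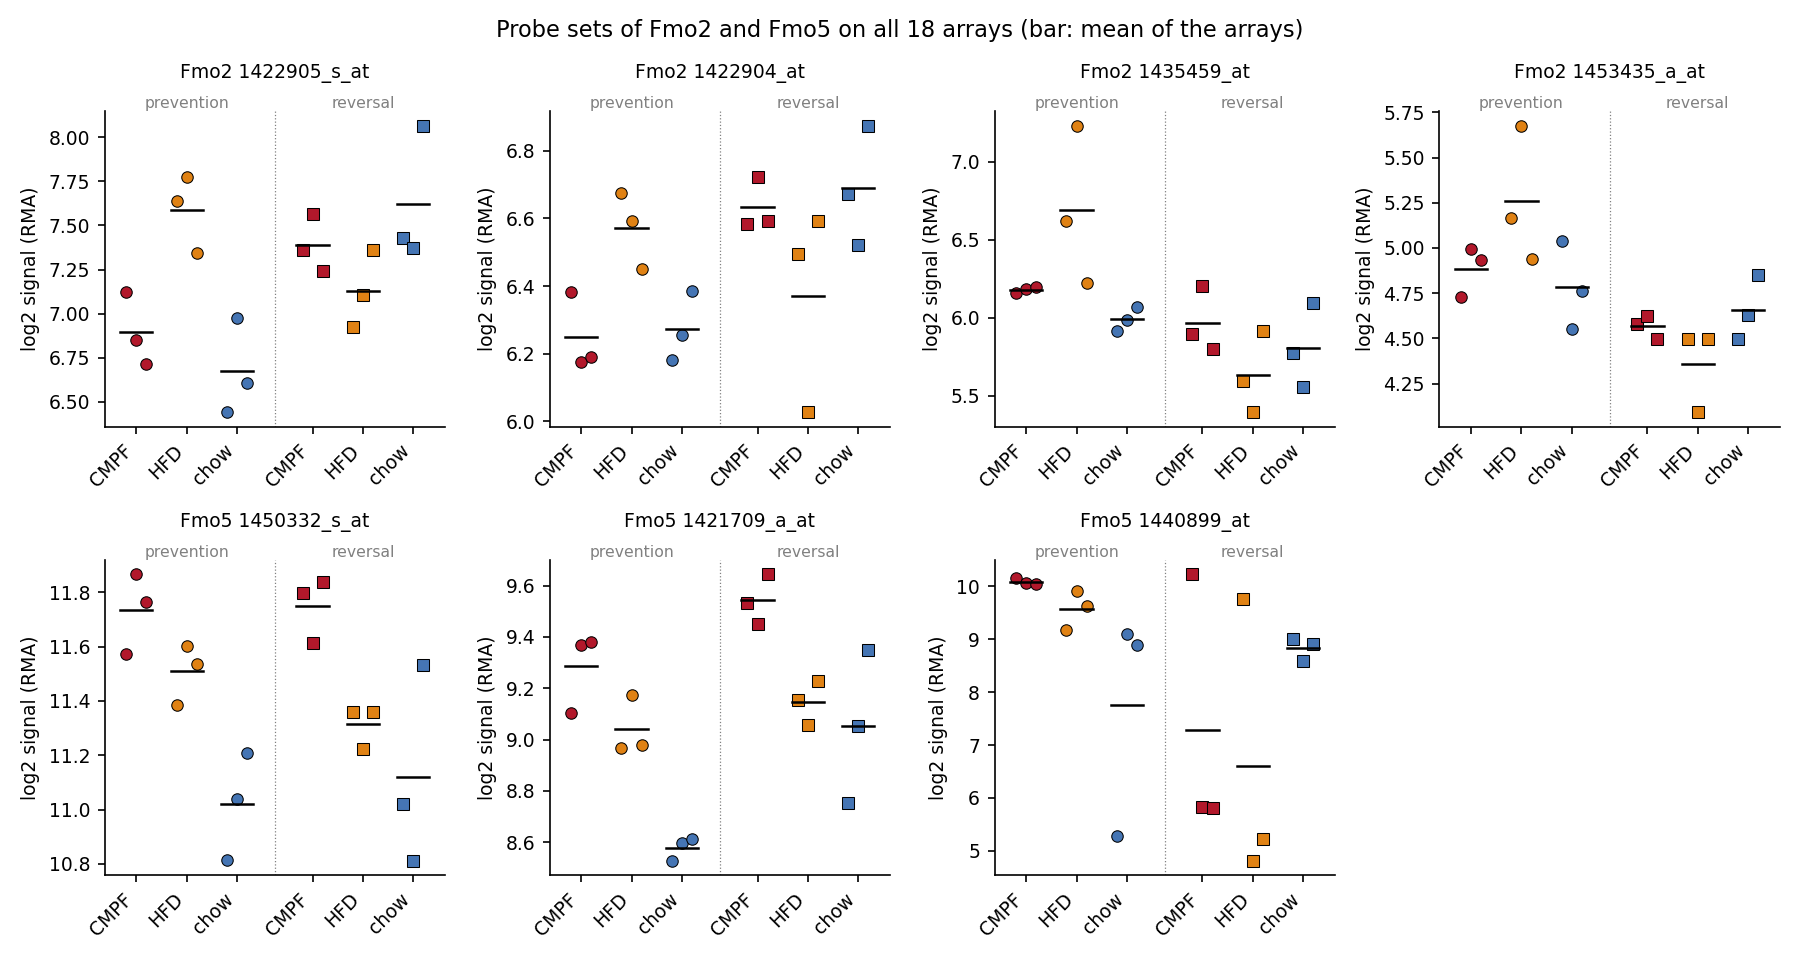
Log2 signal (y axis, own scale per panel) of the 4 fitted Fmo2 probe sets and the 3 Fmo5 probe sets on all 18 arrays, by group; bars are means of the arrays of a group. The HFD circles of Fmo2 lie above the chow circles on average in each of the 4 panels, and the last Fmo5 panel shows 5 arrays below 6 and 13 above 8.

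Fmo1, a main liver form in mice, did not pass in any comparison. It was at 10.54 and 10.16 in prevention CMPF livers, 10.78, 10.73 and 10.52 in prevention HFD livers and 10.49, 10.51 and 10.51 in prevention chow livers. Reversal arrays read 10.63, 10.09 and 10.36 in CMPF livers, 10.51, 10.43 and 10.44 in HFD livers, and 10.09, 9.96 and 10.32 in chow livers. The HFD arrays were above the chow arrays in both models, by 0.17 ± 0.143 (adjusted p = 0.5) and 0.33 ± 0.143 (adjusted p = 0.192) in the fit. Over the other settings the reversal value ran from 0.11 to 0.33. CMPF against HFD was -0.33 ± 0.16 in the prevention model and -0.10 ± 0.143 in the reversal model, with overlap in both.

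Fmo4, a further liver and kidney form, was dim and passed in no comparison. It was at 4.72 and 4.67 in prevention CMPF livers, 4.67, 4.92 and 5.00 in prevention HFD livers and 5.44, 5.15 and 5.62 in prevention chow livers, so both diet groups lay below chow on every array. CMPF against chow was -0.71 ± 0.25 (adjusted p = 0.399) and HFD against chow -0.54 ± 0.224 (adjusted p = 0.155). In the reversal model all 3 groups overlapped, at 4.58 to 5.29 in CMPF livers, 4.48 to 4.89 in HFD livers and 4.68 to 5.57 in chow livers. The genes most like Fmo1 were Pex11g, a peroxisome division factor, Hddc3 and Csrp3 (r = 0.81, 0.80 and 0.79), those most like Fmo4 were Gprc5d, 4933402C06Rik and Lcn3 (0.83, 0.82 and 0.81), and those most like Fmo5 were Tcim, Ppp1r3b and Foxo1 (0.79, 0.79 and 0.78). Reversal chow 2 was the lowest of all samples in Csrp3, at 8.71, and the highest in Gprc5d, at 5.23.

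**Figure D5:**
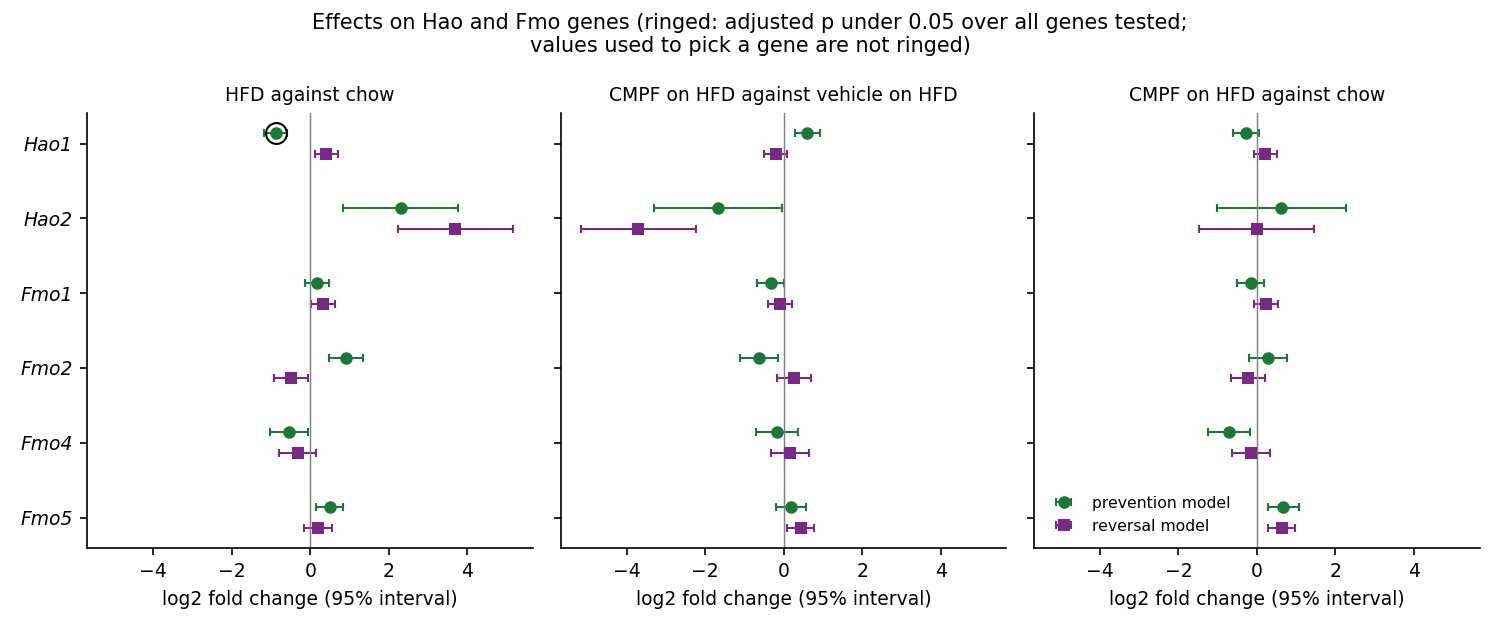
Log2 fold change with its 95% interval (x axis) for each gene (rows) in the 3 kinds of comparison (panels), prevention as circles and reversal as squares; rings mark adjusted p under 0.05 over all genes tested, and are not drawn for the 2 values on which genes were picked (Fmo2 for HFD in prevention, 0.91, and Hao2 for HFD in reversal, 3.69). The ring stands on Hao1 for HFD in prevention (-0.88), and on no gene for CMPF.

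Set against all genes, Hao1 was called lower for HFD in the prevention model, where 5.57% of the 13228 genes passed; Fmo2 lies past the same threshold because it was picked there, which is no test. For HFD in the reversal model 2.45% of genes passed, and of the 5 members not picked on that comparison 0 passed in limma, with 3 at an unadjusted p under 0.05. For CMPF against HFD 0 of 6 passed in limma in the prevention model, where 0% of genes did, with 3 members at an unadjusted p under 0.05, and 0 of 6 in the reversal model, where 0.0378% did, with 2 members unadjusted. For CMPF on HFD against chow 0 of 6 passed in the prevention model (background 0%) and 0 of 6 in the reversal model (background 2%), with 2 and 1 at an unadjusted p under 0.05. The difference of the HFD effects called Hao1, where 11% of genes passed, and the difference of the CMPF effects called 0 of 6, where 0% passed and 2 members had an unadjusted p under 0.05. The median over the 6 members was 0.33 for HFD in prevention, 0.26 for HFD in reversal, -0.25 for CMPF against HFD in prevention and 0.04 in reversal, against medians over all genes of 0.00, 0.03, 0.02 and -0.01. Over all 13228 genes, those at an unadjusted p under 0.05 in limma numbered 3280 for HFD in prevention and 2963 in reversal. For CMPF against HFD they numbered 1060 and 634, and for CMPF on HFD against chow 1321 and 2384. The difference of the HFD effects had 4104 such genes and that of the CMPF effects 1048. As the HFD comparisons chose 2 members, nothing is read from these counts.

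Other flavoenzymes were a list of 36 genes of which 29 were tested. Values of this and the lists below are from the fit without the 3′ to 5′ index. That index was 1.42 higher in HFD than in chow livers of the prevention model. In the reversal model HFD livers differed from chow livers in the index by -0.53 (exact permutation p = 0.6). HFD effects in prevention, and differences of the HFD effects, thus compare groups with different mean index, and its part was not tested for these lists. In the reversal model 5 rose and 0 fell with HFD, with 22 of 29 above chow and a median of 0.36 against 0.03 over all genes. Brighter genes lay higher as a whole. With 60% of probe sets dropped the median over all genes was 0.097, and 0.126 for the difference of the HFD effects. Counts of genes above chow and list medians, here and for the lists below, lean on this and describe only. Xdh, xanthine dehydrogenase, rose by 1.29 ± 0.236 (adjusted p = 0.0154), Sqle, squalene epoxidase, rose by 3.03 ± 0.618 (0.0227), Nqo2, a quinone reductase, rose by 0.62 ± 0.123 (0.0215) and Sardh, sarcosine dehydrogenase, rose by 0.76 ± 0.151 (0.0215). Sqle, Xdh and Nqo2 also rose in CMPF livers against chow, by 3.46, 1.21 and 0.59 (adjusted p = 0.0128, 0.0191 and 0.0268). In the prevention model Ldhd, the mitochondrial D-lactate dehydrogenase, rose by 0.97 ± 0.18 with HFD (adjusted p = 0.0166), while Chdh, choline dehydrogenase, fell by 0.56 ± 0.117 (0.0219) and Etfdh, which passes electrons from fatty acid oxidation to the respiratory chain, fell by 1.09 ± 0.241 (0.0262). For CMPF against HFD 0 of 29 passed in either model in limma, with 2 at an unadjusted p under 0.05 in the prevention model and 1 in the reversal model. Unadjusted counts, here and for the lists below, are to be read beside those over all genes given above. For the difference of the HFD effects 5 of 29 passed, all positive, among 22 positive: Pipox (0.87), Xdh (1.43), Chdh (0.57), Etfdh (1.46) and Nqo2 (0.97), with adjusted p from 0.0181 to 0.0428; they too are named after their values were seen. For CMPF against HFD the genes with the smallest p were Ero1a, an oxidase of protein folding (0.29, adjusted p = 0.554), in prevention and Nqo1, a quinone reductase (-0.66, adjusted p = 0.852), in reversal, and against chow in prevention it was Chdh (-0.49, adjusted p = 0.35).

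Glyoxylate and 2-hydroxyacid genes, the metabolic partners of Hao1, numbered 17 tested of 18. Of these, Ldhd rose as above and Glyctk, glycerate kinase, fell by 0.45 ± 0.117 (adjusted p = 0.0410) with HFD in the prevention model. For the reversal model all 17 were above chow with HFD (median 0.31, against 0.097 over all genes with 60% of probe sets dropped). Yet 0 passed in limma, with 8 at an unadjusted p under 0.05. Slc26a1, an oxalate and sulfate exchanger, was nearest at 1.25 ± 0.324 (adjusted p = 0.0585), and it was at 1.28 for CMPF on HFD against chow (0.0591). Agxt, which turns glyoxylate to glycine, was at -0.22 and 0.23 for HFD in the prevention and reversal models and at 0.23 and -0.46 for CMPF against HFD, with adjusted p from 0.406 to 0.813. For the difference of the HFD effects, where Hao1 was at 1.29, 12 of 17 were positive (median 0.45 against 0.03 over all genes) and 3 passed, all positive: Glyctk at 0.81 ± 0.166 (adjusted p = 0.0199), Slc26a1 at 1.79 ± 0.459 (0.0309) and Hagh, glyoxalase 2, at 0.57 ± 0.155 (0.0362). Genes are named for this difference, here and for the lists below, after their values were seen. Hagh was at 0.40 for CMPF against HFD in prevention (adjusted p = 0.416), and Ldhd at 0.60 for CMPF on HFD against chow (0.399).

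Peroxisome genes, 19 tested of 23, had 0 calls in limma in all 6 comparisons of groups, with 5 at an unadjusted p under 0.05 for HFD in prevention and 6 in reversal, and from 0 to 2 in the other comparisons. With HFD 10 of 19 were above chow in prevention and 18 of 19 in reversal (medians 0.01 and 0.33). For the difference of the HFD effects 17 of 19 were positive and 2 passed, Prdx3, a mitochondrial peroxidase, at 1.05 ± 0.309 (adjusted p = 0.0450) and Abcd3 at 0.69 ± 0.208 (0.0468). Cat, catalase, which removes the hydrogen peroxide made by Hao enzymes, was at -0.17 and 0.02 for HFD and at 0.20 and -0.14 for CMPF against HFD, with adjusted p from 0.268 to 1.00. The genes nearest the threshold were Abcd3, a peroxisomal membrane transporter, at -0.43 for HFD in prevention (adjusted p = 0.0965), and its relative Abcd2, at 0.95 for HFD in reversal (0.0532) and -0.86 for CMPF against HFD (0.496). Against chow the smallest p of CMPF livers were those of Pex19 in prevention (-0.42, adjusted p = 0.399) and Pxmp2 in reversal (0.38, 0.12).

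Of genes of NADPH supply in any part of the cell, 10 tested of 11, 5 passed for HFD in prevention and 3 in reversal. Some act in mitochondria, among them Idh2 and Nadk2, so the list is not one of supply to the monooxygenases. With HFD in prevention 3 rose: Pgd, of the pentose phosphate pathway, rose by 0.84 ± 0.194 (adjusted p = 0.0293), Mthfd1 by 0.43 ± 0.11 (0.0389) and Aldh1l1, both of folate metabolism, by 0.48 ± 0.119 (0.0340), while Nadk2, the mitochondrial NAD kinase, fell by 1.26 ± 0.295 (0.0299), as 1 of 2 that fell. With HFD in reversal the isocitrate dehydrogenases Idh1 and Idh2 rose by 0.47 ± 0.112 (0.0448) and 1.01 ± 0.134 (0.00331) and Aldh1l1 rose by 0.66 ± 0.119 (0.0146). CMPF livers of the reversal model stood above chow for Idh2, by 0.80 (0.0103), and Aldh1l1, by 0.77 (0.00561). For CMPF against HFD 0 of 10 passed in either model, with 1 and 0 at an unadjusted p under 0.05, Aldh1l1 (-0.47, adjusted p = 0.388) and Me1 (-0.49, adjusted p = 1.00) having the smallest p, and for CMPF on HFD against chow in prevention it was Pgd (0.66, 0.399). The HFD effects of the models differed for 2 of 10, Idh2 at 0.86 ± 0.189 (0.0245) and Nadk2 at 2.02 ± 0.418 (0.0202).

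Drug oxidation partners of the endoplasmic reticulum, 12 tested of 15, and riboflavin genes, 5 tested of 7, had 0 calls in limma in the 6 comparisons, with at most 3 and at most 2 at an unadjusted p under 0.05. Cyp2c29 was nearest in prevention, at 0.44 for HFD (adjusted p = 0.0768) and 0.49 for CMPF on HFD against chow (0.399), with Cyp3a11 at 0.31 for CMPF against HFD (0.636). In reversal Cyp3a25 was at -0.43 for HFD (0.0862), and Nr1i2, the xenobiotic receptor PXR, at 0.79 for CMPF against HFD (0.172) and 0.46 against chow (0.17). Of the riboflavin genes, Slc25a32, the mitochondrial FAD carrier, was at -0.76 for HFD in prevention (0.101) and 0.77 for CMPF on HFD against chow in reversal (0.155). Slc52a3, a riboflavin transporter, was at -0.23 for HFD in reversal (0.226) and -0.21 for CMPF against HFD in prevention (0.725), Rfk, riboflavin kinase, at -0.14 for CMPF against HFD in reversal (1.00) and Acp2 at 0.47 for CMPF on HFD against chow in prevention (0.379). Between the models the HFD effects differed for 1 of 12 drug oxidation genes, Cyp3a25 at -0.64 ± 0.178 (0.0380), and 1 of 5 riboflavin genes, Slc25a32 at 1.27 ± 0.377 (0.0451).

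Sex-biased liver genes were set beside Hao2 because Cyp2b13 tracked it. All arrays carried low Xist (3.80 to 5.25) and high Eif2s3y (8.48 to 9.24). Of 11 female-biased genes tested of 18, Cyp2b9, Cyp2b13 and Cd36, the fatty acid translocase, rose with HFD in prevention, by 3.68, 3.35 and 2.25 (adjusted p = 0.0105, 0.0178 and 0.0291), and in reversal, by 5.19, 3.40 and 3.22 (0.000766, 0.0181 and 0.00752). The other 8 did not pass in either model, and over the list 10 of 11 were above chow in prevention (median 0.29) but 6 of 11 in reversal (median 0.04). In the difference of the HFD effects 0 of 11 passed in limma, with 1 at an unadjusted p under 0.05. Cyp2b9 was at -3.24 for CMPF against HFD in reversal (adjusted p = 0.0859) and Cyp2b13 at -2.14 in prevention (0.481), and 0 of 11 passed for CMPF, with 3 at an unadjusted p under 0.05 in prevention and 4 in reversal. Cyp2b9 was also nearest for CMPF on HFD against chow, at 2.37 in prevention (0.35) and 1.95 in reversal (0.0888).

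Of 13 male-biased genes tested of 16, 7 fell with HFD in prevention and 0 rose, among them Ugt2b38, a glucuronosyltransferase, at -2.97 ± 0.432 (adjusted p = 0.00931), C6, a complement component, at -1.82 ± 0.277 (0.0105), Slco1a1, an organic anion transporter, at -1.19 ± 0.213 (0.015) and C8b, also of complement, at -1.28 ± 0.247 (0.0178). All 13 were below chow there (median -1.19), and the mean 3′ to 5′ index differed between the same groups, as for Hao1. In reversal 0 of 13 passed for HFD, with 4 at an unadjusted p under 0.05 and Ugt2b38 nearest at -1.70 (0.0539), and Ugt2b38 fell by 1.93 in CMPF livers against chow (0.0368). For CMPF against HFD C6 was at 1.34 in prevention (0.252) and Gstp1 at 0.28 in reversal (0.894), and C8b was at -0.70 for CMPF on HFD against chow in prevention (0.453), with 0 of 13 passing and 7, 3 and 2 at an unadjusted p under 0.05 in these 3 comparisons. The HFD effects differed between models for 2 of 13, Slco1a1 at 1.33 ± 0.301 (0.0251) and C6 at 1.58 ± 0.391 (0.0287). Parts of these lists were known to move in these arrays, so their counts describe and support nothing.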

How the data were processed

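Liver RNA (200 ng per array, per the labels) was hybridised to Affymetrix arrays. The values deposited by the authors are log2 signals from RMA in Affymetrix Expression Console 1.1, per the submitters' processing notes; which arrays were normalized together is not given in the sources used here. Arrays have no depth, and their number limits the precision. Groups came from the sample labels. Probe sets were named from the platform table (34945 with 1 symbol, 932 with several, 9160 unlisted here). The 40% with the lowest mean were dropped, 1 probe set per gene was kept (highest mean) and 13228 genes were fitted with limma 3.58.1 in R 4.3.3: 6 group means, 17 samples, 11 residual and 3.02 prior degrees of freedom, Benjamini-Hochberg adjustment, threshold 0.05. The fit was tested on simulated data. Named genes were the 6 members, the 3 most like each by correlation, up to 4 of each list past the threshold or else the 1 with the smallest p, and Agxt and Cat (other genes fixed by name were not tested). The members and lists were chosen with earlier results of these data known. Tried were 11 other settings and leaving out each of 17 samples. Promoters are RefSeq's.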

Additional observations from a re-analysis of the deposited data

Results flagged for a closer look

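The HFD effect on Hao1 differed between the models by an interaction test in limma: reversal minus prevention was 1.29, with HFD against chow at 0.41 in the reversal model and -0.88 in the prevention model (adjusted p = 0.0163). All 3 reversal HFD arrays lay above their chow arrays and all 3 prevention HFD arrays below theirs. With the 3′ to 5′ index as a covariate the Hao1 difference was 1.09 (adjusted p = 0.152). For Fmo2 every reversal HFD array lay below its chow arrays and every prevention HFD array above them, with effects of -0.49 and 0.91 and a difference of -1.41. Fmo2 was picked on the prevention effect, so this difference was not tested. The prevention chow arrays had the lowest mean index.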

How the results depend on the processing

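Over 48 effects and 1304 alternative values, 1251 kept their direction and their side of the threshold, 20 were no longer past it, 16 newly passed it and 17 changed sign. None of the 17 was among the 5 effects past the threshold, of which 3 hold a value used to pick Fmo2 or Hao2, so that their place there is no test. Causes were not tested, except that dropping 60% of probe sets left Hao2 out.

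With the index as a covariate, HFD in prevention gave -0.73 for Hao1 and 0.64 for Fmo2 (0 members called), the differences of the HFD effects were 1.09 for Hao1 and -1.03 for Fmo2 (0 called), 1 member (Hao2) was called for CMPF against HFD in reversal, and Fmo2 was at -0.0161 for CMPF against chow in prevention. With the samples of the 2 groups only, Fmo2 was at 0.91 for HFD in prevention and no longer past the threshold. Hao2 was at 3.69 for HFD in reversal, with 0 members called there, and likewise with the samples of that model only. With 60% of probe sets dropped, which left Hao2 out, 0 members were called for HFD in reversal. With all 18 arrays 1 member (Fmo5) was called for CMPF against chow in reversal. Quantile normalization turned Fmo5 for HFD in reversal to -0.0148, Hao1 and Hao2 for CMPF against chow in reversal to -7.4e-05 and 0.0683, and the Fmo1 difference of HFD effects to -0.229. Cyclic loess gave 0.0388 for that Hao2 effect and -0.164 for that Fmo1 difference. The mean of probe sets gave -0.651 for Fmo5 with HFD and -0.143 with CMPF against chow, both in reversal.

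With the replicate block Fmo5 was at 0.63 for CMPF against chow in reversal (limma adjusted p = 0.0468), so 1 member was called. Same-numbered samples correlated from -0.37 to 0.44. With so few samples a group, this range cannot tell whether the numbers pair the samples.

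Leaving out 1 sample at a time gave, for HFD in prevention, -0.965 to -0.814 for Hao1, 0.797 to 1.06 for Fmo2 and 0 to 3 members called. For HFD in reversal Hao2 ran from 2.92 to 4.81, with 0 to 1 past the threshold. CMPF against HFD in reversal gave -4.82 to -2.92 for Hao2, -0.231 to 0.0386 for Fmo1, -0.0172 to 0.339 for Fmo4 and 0 to 1 called. CMPF against chow gave -0.348 to 0.0341 for Fmo1 in prevention, and in reversal -0.0785 to 0.115 for Hao2, -0.349 to 0.0961 for Fmo4 and 0 to 1 called. The differences of HFD effects ran from 1.15 to 1.38 for Hao1 and -1.56 to -1.18 for Fmo2, with 0 to 3 called.

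Genes called for HFD ran from 17 to 1151 in prevention and 0 to 475 in reversal over the other settings (737 and 324 as reported), for CMPF against HFD from 0 to 36 and 0 to 17 (0 and 5), for CMPF against chow from 0 to 6 and 8 to 385 (0 and 265), and for the difference of HFD effects from 0 to 1826 (1452). Leaving out 1 sample at a time these counts ran from 8 to 1624 and 99 to 577 for HFD, 0 to 1 and 0 to 10 for CMPF against HFD, 0 to 1 and 73 to 267 for CMPF against chow, and 0 to 2400 for the difference. With 60% of probe sets dropped the median of that difference over all genes was 0.126. Differences between models could not be had from 1 model alone.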

Other observations

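The probe set of Fmo5 that split the arrays, 1440899_at, was compared with all 45036 other probe sets after its values were seen. The most alike over the 18 arrays was 1460426_at of Pde4dip, with r = 0.86. It was between 3.29 and 3.59 on the same 5 arrays and between 4.06 and 4.88 on the other 13. Pde4dip lies 2 protein-coding genes from Fmo5 on mouse chromosome 3. The next most alike, a probe set of Pip5k1a, had r = 0.77, and its values on the 5 arrays and on the 13 overlapped. On the whole array 11 probe sets separated the 5 arrays from the 13, and 2 did so by over 0.2, those of Fmo5 and Pde4dip. The cause was not tested.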
